A study of Mustela putorius furo with 20 samples.

Results

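RNA of the outer subventricular zone (oSVZ) of the ferret cortex at postnatal day 5 (P5) was compared between a gyrus, the coronal gyrus (CG), and a sulcus, the suprasylvian sulcus (SSS). The study places this age at the onset of cortical folding. The libraries were chosen by their labels, which gave 5 CG and 5 SSS libraries at P5, 10 of the 20 in the series. The other 10 came from the same regions of 5 animals at P15, in the middle of folding. The kits were untreated domestic ferrets (*Mustela putorius furo*) of both sexes, and the oSVZ was cut by laser from Nissl-stained sections of the left hemisphere, with many consecutive sections pooled into a library. Each animal gave a library of each region, so that CG and SSS were compared within animals (n = 5 pairs), and a positive log2 fold change means a higher level in the CG.

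The oSVZ is a germinal layer that is thick in folded brains. Its basal radial glia keep a fibre towards the surface of the brain but have left the ventricle, and they divide there beside intermediate progenitors, migrating neurons and young glia. Radial glia carry transcripts such as *FABP7* and *VIM*, several of which astrocytes also carry, and oligodendrocyte precursors pass through a committed, not yet myelinating stage marked by *GPR17*. A bulk library sums all of these cells, so that fewer cells of a type and less RNA per cell cannot be told apart.

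The P5 CG libraries held 2941880 to 3545754 reads that fell in genes and the P5 SSS libraries 2785162 to 4277326. Over the 20 libraries of both ages, 12669 of 32057 genes had enough reads to be tested, so that a gene could pass by its P15 reads. Genes tested but without a read were fewer in the CG than in the SSS library of the same animal in 5 of 5 animals, at 218 to 586 against 244 to 825. The SSS library of animal 4 held the highest of these numbers and stood apart on the first principal component, at 97.5 against −38.3 to 19.4 in the other 9 libraries. In the study the SSS library of animal 4 also has the lowest RNA integrity number of the 20. The part of these differences between libraries in the results was not tested. A fit with RNA integrity as a covariate is given at the end. Of the markers fixed for the tissue, *SOX2* and *HOPX* are not paired with an identifier here, while *PAX6*, *LHX2* and *EOMES*, which mark cortical progenitors, were present at 29.2 to 408 CPM (the read count of a gene scaled to library size) as group means. The myelin genes *MOG*, *MAG* and *OPALIN* had 0 reads in the 10 P5 libraries. *MAG* still passed the filter and is among the 14 committed oligodendrocyte genes tested below.

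Of the 12669 genes, 5 (0.0395%) passed a false discovery rate (FDR) of 0.05 in the quasi-likelihood test of edgeR with the animal as a block. *FABP7*, which encodes the brain fatty acid-binding protein of radial glia, rose in the CG. *CBLB*, an E3 ubiquitin ligase that acts on activated receptors, *PIK3R1*, the regulatory subunit p85α of phosphoinositide 3-kinase (PI3K), *GPR17*, a receptor of committed oligodendrocyte precursors, and *CDK18*, a kinase of the cyclin-dependent family, fell in the CG. All 5 had the same direction in 5 of 5 animals. The study's own edgeR test at P5 also lists *FABP7*, *CBLB* and *PIK3R1* as significant. It does not list *GPR17* or *CDK18*. Other genes in its list did not pass here, among them *RPS19*, *GAPDH*, *NETO2* and *H2AC25*.

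*FABP7* stood at 6979, 7238, 5974, 5088 and 5246 CPM in the CG of animals 1 to 5 and at 4371, 4305, 4173, 3278 and 3999 CPM in the SSS. Every CG library lay above every SSS library, and these values rest on 9023 to 24026 reads per library. The means were 6105 ± 980 CPM in the CG and 4025 ± 441 CPM in the SSS (SD, n = 5), a 1.51-fold difference (log2 fold change 0.59 ± 0.08 SE, edgeR FDR = 0.00181). It was called with any P5 animal left out, at an FDR of 0.00379 to 0.0361.

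*CBLB* stood at 150, 152, 149, 294 and 196 CPM in the CG of animals 1 to 5 and at 331, 286, 287, 446 and 304 CPM in the SSS. The CG library of animal 4 reached into the range of the SSS, while within each animal the SSS was higher. The SSS mean was 1.80-fold the CG mean as fitted (log2 fold change −0.85 ± 0.14, edgeR FDR = 0.0281). The FDR was 0.0575 to 0.182 with any P5 animal left out, so that the call needed all 5.

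*PIK3R1* stood at 87.3, 123, 138, 130 and 129 CPM in the CG and at 122, 255, 187, 245 and 238 CPM in the SSS. Animal 1 was lowest in both regions, and its SSS library lay within the range of the CG. The fitted log2 fold change was −0.76 ± 0.14, which corresponds to a 1.69-fold higher level in the SSS (edgeR FDR = 0.0480). It had an FDR of 0.0703 to 0.319 without any of the P5 animals, of 0.0749 to 0.0849 without P15 animal 1, 2, 3 or 5, and of 0.00839 without P15 animal 4. The call was also lost with the P5 libraries alone (FDR = 0.0683) and with library size in place of TMM scaling (0.0601).

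*GPR17* stood at 2.10, 15.1, 19.1, 4.08 and 7.62 CPM in the CG and at 17.3, 29.0, 62.4, 20.4 and 12.7 CPM in the SSS. It was a gene of low level, with 6 to 68 reads per CG library and 42 to 261 per SSS library, and the groups overlapped. The fitted level was 3.08-fold higher in the SSS (log2 fold change −1.62 ± 0.29, edgeR FDR = 0.0333). The call was lost with limma-voom (FDR = 0.124), the newer edgeR fit (0.0704) and the P5 libraries alone (0.189), and also without P5 animal 1 (FDR = 0.115), 3 (0.0813) or 4 (0.202) and without P15 animal 1, 2 or 3 (0.0725 to 0.0849).

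*CDK18* had 1, 0, 0, 0 and 1 reads in the CG libraries and 49, 36, 10, 2 and 15 reads in the SSS libraries. Pooled over animals the reads were 2 against 112, which after scaling to library size is a SSS to CG ratio of 57.1, and its exact 95% interval ran from 15.4 to 477 for counting error alone. Every CG library was below every SSS library, but the SSS library of animal 4 held only 2 reads, so the size of the difference is poorly known. With the P5 libraries alone *CDK18* did not pass the filter on low counts. It was therefore tested only through its P15 reads, and that fit neither kept nor lost its call. The fitted log2 fold change was −5.37 ± 1.02 (edgeR FDR = 0.0480), and the FDR was 0.0713 to 0.319 without any of the P5 animals and 0.0725 to 0.0906 without P15 animal 1, 2, 3 or 5, and 0.0531 with library size in place of TMM scaling.

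**Figure D1:**
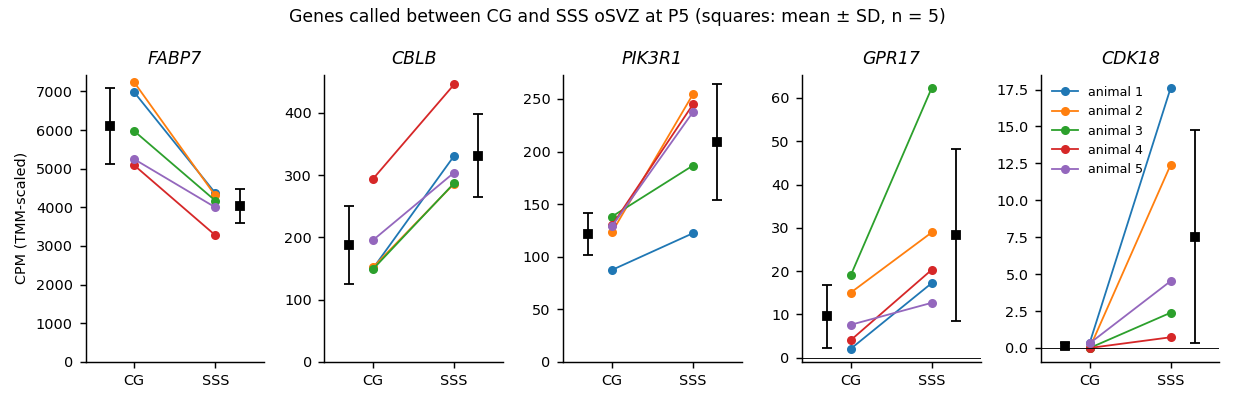
CPM of the 5 called genes in the CG and SSS library of each P5 animal (lines join the libraries of an animal, squares are mean ± SD, n = 5, and each panel has its own linear axis). *FABP7* is higher in the CG of every animal, from 5088 to 7238 CPM, and the other 4 genes are higher in the SSS of every animal.

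How many genes passed depended on the animals in the fit. Leaving out P5 animals 1 to 5 in turn gave 2, 2, 1, 1 and 3 calls, and leaving out P15 animals 1 to 5 gave 2, 2, 2, 51 and 3. The SSS library of P15 animal 4 had 1371 tested genes without a read, the most of the 20 libraries. Without it the 51 calls, 30 higher and 21 lower in the CG, included all 5 genes above.

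A second tier lay just outside the threshold, at an FDR of 0.0591 to 0.0907, and its genes are given by value, since they did not pass. Those on the CG side included 2 proteins of the cell surface. *TRHDE*, the ectoenzyme that degrades thyrotropin-releasing hormone, stood at 39.5, 28.3, 33.95, 42.55 and 56.2 CPM in the CG and 6.12, 7.59, 16.7, 14.9 and 20.9 CPM in the SSS. Its groups did not overlap (log2 fold change 1.68 ± 0.33, edgeR FDR = 0.0591). *ADGRG1*, an adhesion receptor whose loss in humans disturbs the folding pattern of the cortex, averaged 274 ± 51.1 and 194 ± 44.1 CPM (log2 fold change 0.51 ± 0.12, FDR = 0.0906).

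The matrix genes *ADAMTS8*, a secreted protease, and *FBLN7*, a fibulin, were low and varied between animals. *ADAMTS8* stood at 28.6, 18.7, 6.17, 0.291 and 1.91 CPM in the CG and at 3.96, 5.52, 0.717, 0 and 1.51 CPM in the SSS. Animals 1 and 2 carried most of its reads in either region. The log2 fold change was 2.11 ± 0.42 for *ADAMTS8* (FDR = 0.0591) and 1.31 ± 0.27 for *FBLN7* (FDR = 0.0673).

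Abundant metabolic and ribosomal transcripts made up another group on the CG side. The glycolytic enzyme *GAPDH* stood at 1135, 1905, 1243, 981 and 1346 CPM in the CG and at 681, 940, 948, 791 and 859 CPM in the SSS, with no overlap (log2 fold change 0.62 ± 0.12, FDR = 0.0591). *DBI*, which binds acyl-CoA esters, averaged 1599 ± 249 and 1174 ± 206 CPM (log2 fold change 0.45 ± 0.10, FDR = 0.0703), and *ALDOA*, also of glycolysis, had a log2 fold change of 0.57 (FDR = 0.0906). The ribosomal protein genes *RPL38* and *RPLP2* had log2 fold changes of 0.49 and 0.50. A pair of identifiers without a symbol that the study reads as *RPL21* and *RPL32* by homology had 0.39 (FDR = 0.0698) and 0.48 (FDR = 0.0906). *GAPDH* and ribosomal protein genes have many near-identical pseudogene copies, and reads that map to several places were not assigned in the study's counting, so their levels are uncertain.

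On the SSS side this tier held regulators and neuronal surface molecules. *NETO2*, an auxiliary subunit of kainate receptors, averaged 631 ± 80.8 CPM in the CG and 905 ± 132 CPM in the SSS without overlap (log2 fold change −0.52 ± 0.11, FDR = 0.0673). *CNTN4* (log2 fold change −0.74), an adhesion molecule of axons, *SEMA6D* (−0.53), a transmembrane semaphorin, and *NAV2* (−0.76), a protein of the growing microtubule end, were also lower in the CG. The regulators were *PHF20L1*, a reader of histone methylation (−0.55), *TLE4*, a corepressor found in deep-layer cortical neurons (−0.76), *ZNF462*, a zinc finger protein (−0.52), and *DDX3X*, an RNA helicase whose variants cause intellectual disability (−0.57). *PHF20L1* stood at 274 to 375 CPM in the 5 CG libraries and 396 to 532 CPM in the SSS, without overlap, while *TLE4* overlapped.

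Leaving out P15 animal 4 brought each gene named in this tier under the threshold, and so did DESeq2. Of the same genes with a P5 animal left out, only *ADAMTS8* (without animal 5) and *CNTN4* (without animal 1) passed. With the P5 libraries alone only *GAPDH* of them passed.

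Over all genes, an unadjusted p under 0.05 was reached by 549 genes higher in the CG (4.33%) and 468 lower (3.69%). The CG was higher in 5 of 5 animals for 615 genes (4.85%) and lower for 555 (4.38%). Every CG library lay above every SSS library for 58 genes (0.458%) and below for 47 (0.371%). These shares are the background for the counts of gene groups that follow, in which "p under 0.05" is unadjusted and only the 5 called genes passed the test over all genes. In lists with 3 or fewer such genes the count often changed with an animal left out, and it is given as a description.

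**Figure D2:**
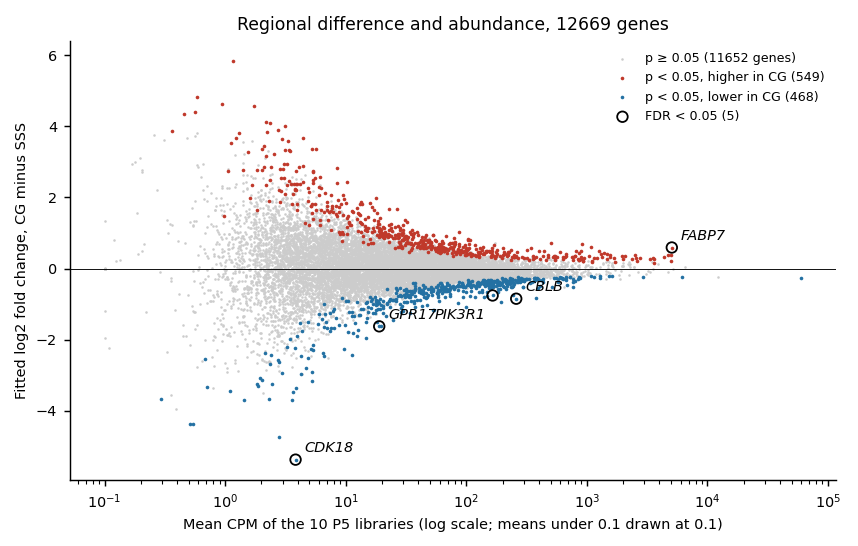
Fitted log2 fold change (CG minus SSS, y axis) against the mean CPM of the 10 P5 libraries (log x axis) for 12669 genes, with unadjusted p under 0.05 in red (549 higher in the CG) or blue (468 lower) and the 5 called genes circled. The spread of the fold changes narrows with abundance.

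Regional differences were small where they could be measured well. Of the 2104 genes with a mean of at least 100 CPM, 0 differed more than 2-fold, and 90% lay between −0.38 and 0.35 on the log2 scale. Among all tested genes the same interval ran from −0.92 to 1.16. The median standard error fell from 1.28 in genes under 3 CPM to 0.0954 in genes over 1000 CPM, and the share with p under 0.05 went from 4.68% to 40.4% of genes in those classes. Among the 104 genes over 1000 CPM, 33 were higher in the CG with p under 0.05 and 9 lower, so that what leaned to the CG did so most often among the most abundant transcripts.

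Large fitted changes were found in rare transcripts. Of the 301 genes with p under 0.05 and a change over 2-fold, 194 were higher in the CG. Among them was a candidate of the study, *SMOX*, the spermine oxidase of polyamine breakdown (14.6 ± 4.03 CPM in the CG and 2.27 ± 1.49 CPM in the SSS, log2 fold change 2.84 ± 0.67, FDR = 0.0906). The largest changes at a mean of at least 10 CPM included *GSS*, glutathione synthetase (16.9 and 3.42 CPM, 2.42), and *PARP12* (21.2 and 5.77 CPM, 1.87), an ADP-ribosyltransferase. On the other side stood *NCEH1*, a cholesterol ester hydrolase (5.42 and 24.0 CPM, −1.95), *NAPSA*, an aspartic protease (5.32 and 19.5 CPM, −1.89), and *CA10*, a secreted neurexin ligand (5.53 and 17.3 CPM, −1.82). The groups of *SMOX*, *GSS*, *PARP12* and *NAPSA* did not overlap.

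Several radial glia transcripts lay on the CG side. Of the 16 genes listed 13 were tested, 11 of them with a fitted value above 0. A p under 0.05 was found for 6 on the CG side and for 0 on the SSS side, and the median was 0.33, against 0.02 over all tested genes. *FABP7* is a member and accounts for most of the list's summed CPM. Besides it, *VIM*, the intermediate filament of radial fibres, stood at 550, 449, 509, 451 and 588 CPM in the CG and at 506, 256, 438, 340 and 308 CPM in the SSS. The CG had more in every animal, least so in animal 1 (log2 fold change 0.50 ± 0.12, edgeR FDR = 0.133). *SLC1A3*, a glutamate transporter of radial glia and astrocytes, averaged 975 ± 72.0 and 800 ± 216 CPM (0.33 ± 0.11). The transcription factors *PAX6* (50.8 and 29.2 CPM, log2 fold change 0.95 ± 0.32) and *LHX2* (408 and 281 CPM, 0.57 ± 0.21) pattern the cortical progenitor field. They were named after their values were seen, as were *EOMES*, *AQP4*, *GJA1*, *GFAP*, *MBP* and *SLC17A6* below. The list median was above 0 within each animal, at 0.10, 0.64, 0.31, 0.76 and 0.22 in animals 1 to 5.

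Other progenitor lists held few such genes. Of 12 tested basal radial glia genes 1 had p under 0.05, *TNC*, an extracellular matrix glycoprotein (248 ± 38.4 and 187 ± 40.8 CPM, log2 fold change 0.42 ± 0.15), and the median was 0.08. *LIFR* and *STAT3*, receptor and effector of leukaemia inhibitory factor signalling, a pathway that maintains basal radial glia, averaged 88.9 and 93.4 CPM and 34.4 and 34.3 CPM. Of 7 intermediate progenitor genes 0 had p under 0.05. Among them *EOMES*, the transcription factor that defines these cells, averaged 82.1 ± 21.96 CPM in the CG and 57.7 ± 36.1 CPM in the SSS (log2 fold change 0.69 ± 0.34, FDR = 0.634).

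Astrocyte transcripts had the highest median of the cell type lists. All 16 listed genes were tested, 14 had a positive log2 fold change, 7 had p under 0.05 higher in the CG and 0 lower, and the median was 0.67. *SLC7A10*, a transporter of small neutral amino acids, stood at 36.0, 39.5, 44.3, 29.7 and 36.8 CPM in the CG and at 11.51, 22.76, 11.95, 19.98 and 16.63 CPM in the SSS, without overlap (log2 fold change 1.20 ± 0.36, FDR = 0.293). *CLU*, a secreted chaperone, averaged 115 ± 32.2 and 59.0 ± 30.1 CPM (1.04 ± 0.26, FDR = 0.133) and was lower in the CG of animal 1. The water channel *AQP4* and the gap junction protein *GJA1* had log2 fold changes of 0.78 ± 0.33 and 0.62 ± 0.27. *GFAP*, the filament of mature astrocytes, was rare, at 4.29 and 3.63 CPM. Animals varied, with list medians of 0.26, 0.87, −0.15, 0.73 and 0.98. All 5 had a larger summed level in the CG, at 1756 to 2665 against 1211 to 2143 CPM. *SPARCL1* and *NDRG2*, with CG means of 1188 and 596 CPM, made up most of these sums, so that the sums mostly follow these genes. In animal 3, *SPARCL1* stood at 1384 CPM in the CG and 1008 CPM in the SSS.

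Committed oligodendrocyte transcripts leaned the other way. Of 14 tested genes 3 had p under 0.05 lower in the CG and 0 higher, *GPR17*, *CDK18* and *CLDN11*, and the list median was −0.19. *CLDN11*, a tight junction protein of myelin, stood at 20.6, 32.5, 29.5, 17.5 and 36.5 CPM in the CG and at 51.81, 58.64, 38.01, 71.93 and 34.46 CPM in the SSS. Animal 5 was the exception to a higher level in the SSS (log2 fold change −0.88 ± 0.21, FDR = 0.120). *MBP*, myelin basic protein, averaged 22.4 ± 9.20 and 29.9 ± 15.9 CPM (−0.37 ± 0.19, FDR = 0.665). All 5 animals had a smaller summed level in the CG, at 137 to 258 against 169 to 379 CPM, and the count of 3 became 5 without P5 animal 1 or without P5 animal 4. The list of oligodendrocyte precursors was mixed. Of 10 tested genes 6 had a fitted value above 0 and 4 below, with a median of 0.15. The 2 with p under 0.05 were higher in the CG, *VCAN* (0.21 ± 0.08) and *CSPG5* (0.35 ± 0.15), which encode chondroitin sulphate proteoglycans that other cells of the layer also make.

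Of 15 excitatory neuron genes 4 had p under 0.05 lower in the CG and 0 higher, and the median was 0.04. They were *TBR1*, a transcription factor of deep-layer neurons (328 ± 86.4 and 487 ± 181 CPM, log2 fold change −0.50 ± 0.20), *NEUROD6* (503.5 ± 107.6 and 650 ± 130 CPM, −0.37 ± 0.16), *DCX*, the microtubule protein of migrating neurons (185 ± 42.5 and 240 ± 69.0 CPM, −0.36 ± 0.14), and *SLC17A6*, a vesicular glutamate transporter (48.7 ± 18.9 and 84.4 ± 37.2 CPM, −0.80 ± 0.36). Of the 15 genes 8 had a fitted value above 0. The summed level of all 15 was smaller in the CG of every animal, at 1382 to 2322 against 1418 to 2578 CPM. *NEUROD6* and *TBR1* had the highest CG means of the list, so that the sum largely follows them and not the list as a whole. The count of 4 was 2 without P5 animal 2 or without P5 animal 4. Of 16 interneuron genes 1 had p under 0.05, *GAD1*, which makes GABA (−0.48 ± 0.19).

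The lists of cells from outside the neural lineage were short and held few genes with p under 0.05. Of 13 microglia genes 2 (15.4%, against 4.33% of all genes) had p under 0.05 higher in the CG and 0 lower. They were *LYN* and *TYROBP* (log2 fold changes 1.44 ± 0.44 and 0.87 ± 0.32). The summed level of the list was higher in the CG of 4 of 5 animals, at 103 to 176 CPM in the CG and 91.0 to 172 CPM in the SSS. Of 14 endothelial genes 1 had p under 0.05, *MFSD2A*, a lipid transporter of the blood-brain barrier, lower in the CG (−1.32 ± 0.45). Of 8 fibroblast genes 1 (12.5%) was higher, *FOXC1*, a transcription factor of the meninges (1.76 ± 0.81). The mural (9 genes), ependymal and choroid (5) and erythroid (3) lists had 0 in either direction. The part of these cells in the results was not tested.

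**Figure D3:**
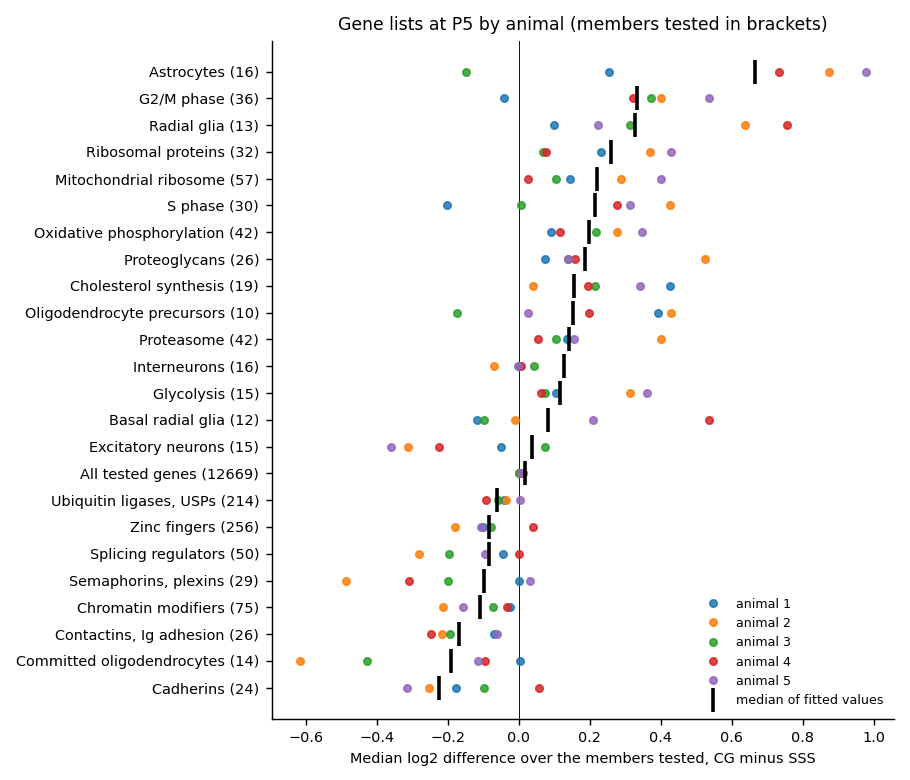
Median log2 difference (CG minus SSS, x axis) over the tested members of 23 gene lists and over all tested genes, for each P5 animal (points) and as fitted over the 5 animals (black bars). Radial glia, ribosomal, mitochondrial ribosome and oxidative phosphorylation lists are above 0 in every animal, whereas astrocytes range from −0.15 to 0.98.

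Transcripts of dividing cells lay on the CG side. Of 36 tested genes of the G2 and M phases, 32 had a positive log2 fold change, 9 had p under 0.05 higher and 0 lower, and the median was 0.33. Within animals 1 to 5 the medians were −0.04, 0.40, 0.37, 0.32 and 0.54. *SPAG5*, a protein of the mitotic spindle, stood at 38.8, 29.2, 31.4, 30.9 and 31.1 CPM in the CG and at 31.3, 5.52, 18.2, 1.09 and 11.8 CPM in the SSS. The CG libraries lay close together and the SSS libraries were scattered (log2 fold change 1.67 ± 0.47, FDR = 0.233). The mitotic kinase *CDK1* averaged 85.02 ± 30.04 and 59.1 ± 46.0 CPM (0.70 ± 0.23), *TOP2A*, a topoisomerase, 534 ± 147 and 420 ± 157 CPM (0.38 ± 0.12), and *FOXM1*, a transcription factor of mitotic genes, 31.9 ± 9.91 and 17.8 ± 6.08 CPM (0.86 ± 0.32). The count of 9 was 5 without P5 animal 2 and 4 without P5 animal 5.

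Of 30 S phase genes 24 had a positive log2 fold change and 3 had p under 0.05, all higher in the CG, with a median of 0.21. They were the replication genes *MCM6* (113 ± 20.6 and 80.8 ± 16.0 CPM, log2 fold change 0.49 ± 0.19) and *PCNA* (113 ± 20.6 and 83.7 ± 36.2 CPM, 0.51 ± 0.22) and *TYMS*, which makes thymidylate (0.67 ± 0.31). The count was 1 without P5 animal 3 or without P5 animal 5. *H2AC25*, 1 of 7 core histone genes tested, averaged 628 ± 192 CPM in the CG and 382 ± 132 CPM in the SSS (0.73 ± 0.17, FDR = 0.1099).

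Ribosomal protein genes lay on the CG side as well. Of 32 tested, 29 had a positive log2 fold change, 18 had p under 0.05 higher in the CG and 0 lower, 14 were higher in 5 of 5 animals, and the median was 0.26. Among genes with a mean of at least 500 CPM, 72.0% of the 25 listed ribosomal genes and 17.2% of 250 other genes had p under 0.05 higher in the CG. *RPS19*, a protein of the small subunit, averaged 1134 ± 440 CPM in the CG and 693 ± 211 CPM in the SSS (log2 fold change 0.68 ± 0.17, FDR = 0.149), and *RPL27A*, of the large subunit, 695 ± 181 and 501 ± 99.3 CPM (0.46 ± 0.11, FDR = 0.133). With the P5 libraries alone *RPS19* was called. All 5 animals had a larger summed level of the list in the CG. Without the animal as a block 4 of the 32 had p under 0.05.

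Mitochondrial and energy genes leaned the same way, by small amounts. Of 57 mitochondrial ribosomal protein genes 44 had a positive log2 fold change, 4 had p under 0.05 higher and 1 lower, and the median was 0.22. *MRPL51* averaged 169 ± 23.3 and 121 ± 30.5 CPM (0.51 ± 0.16), while *MRPL1* was the gene lower in the CG (−0.31 ± 0.15). Of 42 genes of oxidative phosphorylation 36 had a positive log2 fold change, 4 had p under 0.05, all higher, and the median was 0.20, with 7 such genes without P5 animal 1 or without P15 animal 4. *NDUFB10*, a subunit of complex I, averaged 167 ± 44.2 and 107.6 ± 13.8 CPM (0.61 ± 0.16, FDR = 0.180), *NDUFA11*, of the same complex, 77.5 ± 25.2 and 46.4 ± 8.90 CPM (0.71 ± 0.26), and *COX5A*, of complex IV, 268 ± 32.8 and 215 ± 23.1 CPM (0.32 ± 0.13). The mitochondrial ribosome count was 2 without P5 animal 5.

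Of 15 glycolysis genes 13 had a positive log2 fold change and 3 had p under 0.05, *GAPDH*, *ALDOA* and *ALDOC*, the last an aldolase of astrocytes (0.71 ± 0.22). Lipid genes followed with 3 of 19 genes of cholesterol synthesis, *SQLE* (0.36 ± 0.15), *SC5D* (0.46 ± 0.21) and *CYP51A1* (0.32 ± 0.15), and 5 of 26 genes of fatty acid handling, all higher. Besides *FABP7* the latter included *FADS2*, a desaturase (143 ± 22.3 and 98.4 ± 24.2 CPM, 0.56 ± 0.16), and *HADHB*, of mitochondrial beta-oxidation (188 ± 37.0 and 134 ± 28.9 CPM, 0.49 ± 0.14). The cholesterol count was 1 without P5 animal 1, 2 or 5 and the fatty acid count 3 without P5 animal 5. Of 42 proteasome genes 34 had a positive log2 fold change and 4 had p under 0.05, *PSME2* (0.42 ± 0.16) and *PSMB6* (0.46 ± 0.20) among them, and the count was 0 without P5 animal 2, 2 without P5 animal 3 or 5 and 8 without P15 animal 4.

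**Figure D4:**
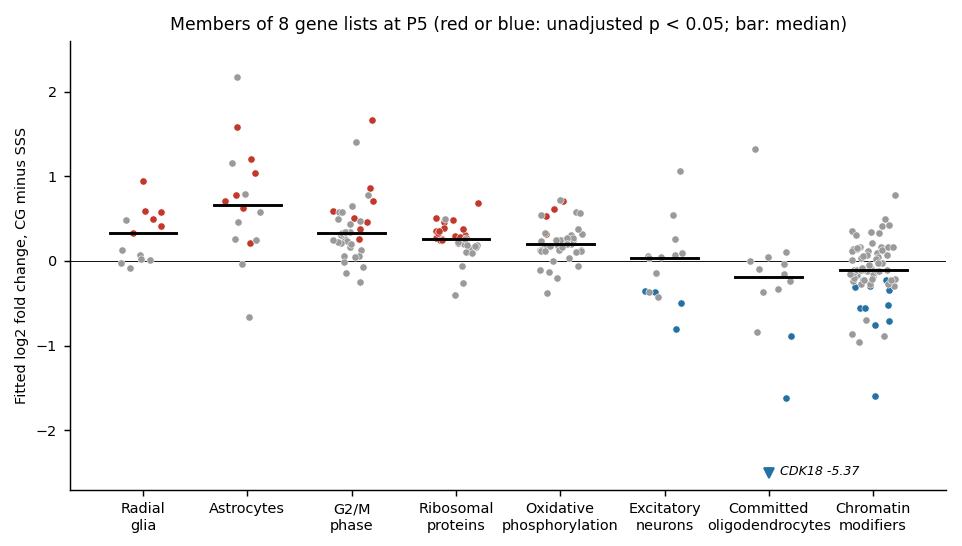
Fitted log2 fold change (CG minus SSS, y axis) of each tested member of 8 gene lists, with unadjusted p under 0.05 in red (higher in the CG) or blue (lower) and bars for the list medians. *CDK18*, at −5.37, is drawn as a triangle at the lower edge, and the ribosomal protein list has 18 red points and 0 blue ones.

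Among genes that regulate chromatin, transcripts and proteins, chromatin modifiers leaned to the SSS. Of 75 tested, 11 (14.7%, against 3.69% of all genes) had p under 0.05 lower in the CG and 0 higher, 14 were lower in 5 of 5 animals, and the median was −0.11. *SMARCA2*, an ATPase of chromatin remodelling, averaged 98.3 ± 17.7 CPM in the CG and 143 ± 41.4 CPM in the SSS (log2 fold change −0.51 ± 0.15, FDR = 0.293), and *CREBBP*, a histone acetyltransferase, 247 ± 39.2 and 317 ± 67.6 CPM (−0.35 ± 0.13, FDR = 0.469). The median was under 0 within each animal, at −0.02, −0.21, −0.07, −0.04 and −0.16, yet the count of 11 was 5 without the animal as a block, 6 without P5 animal 1 or without P5 animal 3 and 7 without P5 animal 2 or without P5 animal 5.

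Among all genes of 100 to 300 CPM, 145 of 1542 were lower in the CG with p under 0.05, so that the share moves with abundance. The median level was 115 CPM for the chromatin modifiers and 114 CPM for the splicing regulators below. For both lists this class is therefore a nearer background than the 3.69% of all genes. Zinc finger genes were near the background, with 14 of 256 (5.47%) lower in the CG at p under 0.05 and 3 higher, and a median of −0.08. *ZNF451*, which joins SUMO to proteins, averaged 99.2 ± 17.7 and 156 ± 27.0 CPM (−0.65 ± 0.16, FDR = 0.150), while *ZNF652* and *ZNF879* were higher in the CG (2.07 ± 0.65 and 1.43 ± 0.45). Likewise, of 214 ubiquitin ligases, their adaptors and deubiquitinases 14 (6.54%) were lower and 5 higher, with a median of −0.06, and among the lower were *HERC1*, a giant ligase (291 ± 69.6 and 384 ± 69.7 CPM, −0.42 ± 0.12), and *USP15*, a deubiquitinase (193 ± 46.5 and 279 ± 94.0 CPM, −0.50 ± 0.15). Either count of 14 was 9 without P5 animal 2, as was that of the zinc fingers without P5 animal 5, and the 3 zinc fingers became 5 to 6 without P5 animal 1, 2 or 5 or P15 animal 4. Of 50 splicing regulators 5 (10%) were lower and 0 higher, near the share lower in the CG among genes of 100 to 300 CPM. Examples were *SRSF6* (109 ± 4.59 and 143 ± 7.24 CPM, −0.39 ± 0.15), whose groups did not overlap, *LUC7L3* (761 ± 135 and 920 ± 136 CPM, −0.28 ± 0.10) and *SRRM2* (−0.28 ± 0.12). That count ran from 1 without P5 animal 1 or 3 to 9 without P15 animal 4, with 2 without P5 animal 2 and 3 without P15 animal 3 or 5.

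Genes of axon guidance and adhesion showed a like lean. Of 29 semaphorins, plexins and neuropilins 3 had p under 0.05 lower in the CG and 0 higher: *SEMA6D*, *PLXNA2*, a semaphorin receptor (187 ± 60.1 and 239 ± 77.7 CPM, −0.36 ± 0.17), and *SEMA3D*, a secreted repellent (2.01 ± 3.76 and 6.54 ± 6.70 CPM, −2.46 ± 1.03). The count was 5 without P5 animal 1 and 1 without P5 animal 4. In the study's RT-qPCR on the same RNA, *SEMA3D* had the opposite direction at P5. *SLIT2*, a repellent of axons and migrating cells, averaged 57.9 ± 30.7 and 114 ± 56.5 CPM (−0.95 ± 0.25, FDR = 0.180) and was the single gene with p under 0.05 among 14 of the Slit, Robo and netrin families. *EPHA5*, an ephrin receptor, was 1 of 2 lower among 14 (480 ± 113 and 579 ± 117 CPM, −0.28 ± 0.12).

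Of 26 contactins and other adhesion molecules of the immunoglobulin superfamily 2 were lower, *CNTN4* and *ALCAM* (95.4 ± 18.2 and 132 ± 21.8 CPM, −0.47 ± 0.14), and 1 higher, *KIRREL3* (8.73 ± 6.85 and 1.89 ± 2.09 CPM, 2.40 ± 0.95), with a median of −0.17. Cadherins (24 tested) and protocadherins (16) had 2 lower each and 0 higher, with medians of −0.22 and −0.24. Examples were *CDH20* (−0.69 ± 0.30) and *PCDH9* (−0.50 ± 0.18). Among neuronal receptors, *GRIA4* and *GRIA2*, AMPA receptor subunits, were lower in the CG (34.3 ± 9.54 and 53.0 ± 14.4 CPM, −0.62 ± 0.16, and 378 ± 103 and 484 ± 120 CPM, −0.36 ± 0.11), 2 of 23 genes of this list, and 1 was higher, *GRINA* (62.9 ± 9.73 and 40.04 ± 17.8 CPM, 0.74 ± 0.29), which is named for glutamate receptors but is no channel subunit. *SYT1*, the calcium sensor of synaptic vesicles, was 1 of 3 lower among 23 vesicle genes (−0.26 ± 0.13), and 1 was higher, *SYPL1* (131 ± 31.7 and 103 ± 35.95 CPM, 0.39 ± 0.16), a relative of synaptophysin. Of 192 solute carriers 8 were higher and 6 lower, among the latter *SLC38A1*, a glutamine transporter of neurons (−0.55 ± 0.14).

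The matrix showed a small lean to the CG. Of 26 proteoglycans and associated matrix genes 5 had p under 0.05 higher and 1 lower, with a median of 0.18. Besides *TNC*, *VCAN* and *CSPG5* these were *BCAN*, brevican (86.7 ± 17.8 and 64.3 ± 20.3 CPM, 0.45 ± 0.17), and *SPARCL1*, a matricellular protein of radial glia and astrocytes (1188 ± 175 and 1030 ± 204 CPM, 0.22 ± 0.09). Collagens (25 tested) had 0 higher and 2 lower, and laminins and integrins (27 tested) 3 higher and 0 lower, with 1 without P5 animal 1 or without P5 animal 3.

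In the signalling pathways the values are those of single genes. Of 30 genes of PI3K signalling 4 had p under 0.05 lower in the CG and 1 higher, with a median of 0.04. Besides *PIK3R1* the lower ones included *RICTOR*, of the second mTOR complex (231 ± 30.5 and 294 ± 61.1 CPM, −0.34 ± 0.12), and *SOS1*, the exchange factor that activates Ras (−0.40 ± 0.16), and the higher was *PIK3CD*, a catalytic subunit mostly of leukocytes (7.44 ± 9.77 and 0.852 ± 0.920 CPM, 2.37 ± 1.10). The count of 4 was 2 without P5 animal 2 or without P5 animal 5. *CBLB* was the single gene with p under 0.05 of 12 ligases and inhibitors that damp receptor tyrosine kinases.

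Of 24 Wnt genes 2 were lower, the coreceptor *LRP6* (109 ± 33.3 and 186 ± 47.1 CPM, −0.78 ± 0.19, FDR = 0.133) and *APC*, of the complex that degrades beta-catenin (5525 ± 396 and 6719 ± 1946 CPM, −0.23 ± 0.10). The 3 higher included *LRP4* (2.57 ± 0.81), and they were 1 without P5 animal 1, 4 or 5. Of 11 Hedgehog genes 2 were higher, the transcription factors *GLI3* (118 ± 33.1 and 90.7 ± 32.2 CPM, 0.42 ± 0.17) and *GLI1*, a transcriptional target of the pathway (8.94 ± 5.25 and 1.77 ± 2.51 CPM, 2.71 ± 1.23). Of 28 Notch genes *MFNG*, a glycosyltransferase that modifies Notch, and the target *HEY1* were higher (0.82 ± 0.35 and 0.75 ± 0.35), and of 25 genes of TGF-beta and BMP signalling the receptor *ACVR1* (0.79 ± 0.26, groups without overlap) and the target *ID3* (2.10 ± 0.86). Of 20 fibroblast growth factor genes 0 had p under 0.05, with *FGFR2* at 181 ± 33.7 and 151 ± 65.0 CPM (0.32 ± 0.17), and of 13 genes of LIF and STAT3 signalling 0.

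The growth factors divided: *HGF* (41.6 ± 19.0 and 26.4 ± 21.9 CPM, 1.03 ± 0.37) and *VEGFB* (1.31 ± 0.53) were higher in the CG, and *PDGFA* (8.43 ± 8.25 and 17.6 ± 13.5 CPM, −1.31 ± 0.41) and *VEGFA* (44.9 ± 12.6 and 72.3 ± 27.3 CPM, −0.65 ± 0.24) lower. *HGF*, *VEGFB* and *PDGFA* belong to a set of 8 genes that the study picked on these same samples, with *CLU*, *LYN*, *TUBA4A*, *CYB5R1* and *CTSW*. Here 7 of the 8 had p under 0.05 higher and *PDGFA* lower, which is no independent evidence, as the set was chosen for such differences. *TUBA4A*, an alpha-tubulin, was at 7.75 ± 4.59 and 1.02 ± 1.70 CPM (3.68 ± 1.09), and reads of tubulin genes may be shared among close copies.

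Few disease genes of cortical size and folding had such a p. Of 20 microcephaly genes 2 had p under 0.05 higher in the CG, *ASPM*, a spindle pole protein (468 ± 108.3 and 403 ± 235 CPM, 0.34 ± 0.15), and *WDR62* (5.13 ± 3.38 and 1.82 ± 3.81 CPM, 3.29 ± 1.25). Of 16 lissencephaly genes 2 were lower, *DCX* and *KIF5C*, a kinesin of axons (1500 ± 245 and 1748 ± 311 CPM, −0.22 ± 0.08). Among the study's other candidates, *PI4KB*, a phosphatidylinositol kinase, averaged 7.78 ± 1.87 and 22.4 ± 14.1 CPM without overlap (−1.39 ± 0.44, FDR = 0.323). *GFRA2*, a neurturin receptor (1.85 ± 2.04 and 12.5 ± 14.8 CPM), *SOX9*, a glial transcription factor (19.4 ± 11.9 and 13.8 ± 8.64 CPM), and *PRUNE1*, a phosphodiesterase (6.45 ± 6.09 and 1.75 ± 1.56 CPM), had p of 0.08001, 0.193 and 0.0629 (edgeR, unadjusted). The study also measured some candidates by RT-qPCR on the same RNA. At P5 it reports the direction of its sequencing for *PI4KB*, *FOXC1*, *PRUNE1* and *FOXM1*, with smaller fold changes. For *SOX9*, *SEMA3D* and a further candidate, *AJAP1*, it reports the opposite direction. Of the genes measured by RT-qPCR only *AJAP1* differed significantly between the regions at P5. The study left out *GLI1* and *TUBA4A*, which could not be determined.

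At P15 the same contrast was fitted in the same model on 5 other animals. *FABP7* had a log2 fold change of 0.59 ± 0.08 at P5 and 0.38 ± 0.08 at P15, and *VIM* of 0.50 and 0.43. *CBLB* went from −0.85 to −0.26, *PIK3R1* from −0.76 to −0.05, *GPR17* from −1.62 to −0.47 and *CDK18* from −5.37 to 0.04. The difference between the ages was tested for each gene. It had p under 0.05 for 488 genes (3.85%), and 0 passed the FDR (1 with DESeq2, 0 with limma-voom, 5 without the filter on low counts, 1 without P5 animal 5). Unadjusted, that p was 0.0803 for *FABP7*, 0.0083 for *CBLB*, 0.0055 for *GPR17*, 0.00168 for *PIK3R1* and 0.0002 for *CDK18*, which had been picked by their P5 values. The median of the radial glia list was 0.33 at P5 and 0.18 at P15, that of astrocytes 0.67 and 0.12, of G2 and M phase genes 0.33 and 0.18, of ribosomal proteins 0.26 and 0.15, and of chromatin modifiers −0.11 and −0.07.

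**Figure D5:**
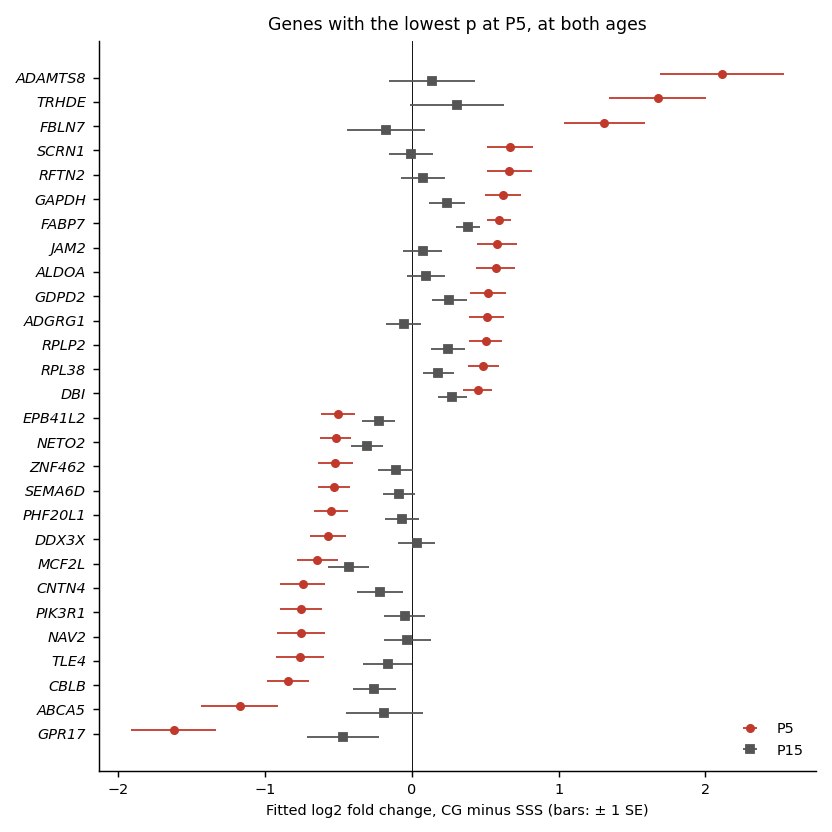
Fitted log2 fold change (CG minus SSS, x axis, bars ± 1 SE) at P5 (circles) and P15 (squares) of the genes with a symbol and the lowest p at P5, up to 15 in each direction, without *CDK18* and 1 gene that is not reported here. *FABP7* is at 0.59 and 0.38, and *PIK3R1* at −0.76 and −0.05. The genes were picked by their P5 values.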

How the data were processed

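Tissue was laser-captured, RNA was amplified by SPIA without molecular identifiers and paired-end reads were trimmed with Trimmomatic 0.38, checked with FastQC 0.11.9, aligned with STAR 2.7.9a to MusPutFur1.0 and assigned to genes with featureCounts. The deposited values are counts that the authors did not normalise, with reads mapping to several places left unassigned. For strand in the counting, nothing is given in the sources used here, so overlapping antisense genes cannot be told apart. Intervals and floors cover counting error only. Each region of an animal gave 1 library.

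The deposited symbols follow the sorted order of the identifiers and not the order of the lines. Each of 17208 identifiers was therefore given the symbol at its sorted rank, which put 27 ribosomal protein genes at a median of 851 CPM, against 1.39 CPM line by line. Of the genes tested 10533 had a symbol, and 7 symbols stood on more than 1 of them.

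Counts were fitted in R 4.3.3 with the quasi-likelihood test of edgeR 4.0.16 after TMM scaling and a filter on low counts (minimum count 10, minimum total 15). All 20 libraries were in 1 fit, with the animal as a block and a region coefficient for each age, and the contrast was CG minus SSS at P5. The study also modelled its samples as paired, but its filter kept fewer genes and its list of significant genes differs. P-values were adjusted by Benjamini-Hochberg over all 12669 genes, with 24.5 median degrees of freedom. CPM are TMM-scaled and SD are over animals. The SE of a log2 fold change was derived from the test, as its absolute value divided by the square root of the F statistic. In genes with very few reads it is only a rough measure. The name of the animal in the library names paired the libraries: same-animal deviations from the group means correlated at 0.046 to 0.165 at P5 (n = 5 pairs), those of different animals at −0.097 to 0.076 (n = 20). The code was tested on simulated counts.

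The genes named were those called, the 15 lowest p-values in each direction, up to 3 genes a direction in each of 70 lists, the study's candidates and the 10 largest changes at a mean of at least 10 CPM with p under 0.05. Of these, 1 gene is not reported here. Members and lists were chosen with earlier results of these data known. Lists are described by counts and medians, without a test. Alternatives were DESeq2 1.42.0, limma-voom (limma 3.58.1), the newer edgeR fit, other scalings and filters, P5 libraries alone, RNA integrity as a covariate, no block, and each animal left out. Figures were drawn with matplotlib 3.10.9. No sequences or positions are given because no genome of this build was used here.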

Additional observations from a re-analysis of the deposited data

Results flagged for a closer look

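For each named gene and list, the log2 difference (CG minus SSS) of the 5 animals was examined for 1 value apart from the others (Dixon's ratio above 0.71), and 15 of 219 groups of 5 had one. Chance gives about 1 in 20. Animal 1 stood apart for *DCX* at −0.065 against −0.462 to −0.362 in the other 4, for *TYROBP* at 2.34 against 0.239 to 0.773 and for *BCAN* at 1.305 against 0.056 to 0.379. It also did for the median of the immediate early genes, at −0.5905 against 0.268 to 0.4125. Animal 2 stood apart for *DBI* at 0.815 against 0.279 to 0.397 and for *CSPG5* at 0.894 against 0.151 to 0.334, and for 3 list medians: proteoglycans and matrix genes at 0.5255 (others 0.074 to 0.159), heterochronic genes at −0.293 (0.136 to 0.188) and spliceosome proteins at 0.198 (−0.056 to 0.013). Animal 3 had *USP15* at −0.009 against −0.714 to −0.534 and *VEGFA* at 0.545 against −1.181 to −0.759, the opposite direction to the other 4. Animal 4 had *SMOX* at 4.379 against 1.823 to 2.479, *STAT3* at 1.1 against −0.444 to −0.014 and *CA10* at −3.584 against −1.369 to −1.037. Animal 5 had *SYT1* at −0.613 against −0.225 to −0.106.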

How the results depend on the processing

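With no replicate block, thus without the pairing by animal, 0 genes were called at P5 (353 higher and 334 lower at an unadjusted p under 0.05), the FDR of *FABP7* was 0.900, and 0 were called for the difference between the ages. The 5 calls at P5 became 106 with DESeq2 (60 higher, 46 lower, including the 5), 54 with limma-voom (33 and 21, including 4), 27 with the newer edgeR fit (11 and 16, including 4), 69 without the filter beyond 1 read (40 and 29, including the 5), 27 with RNA integrity as a covariate (18 and 9, including the 5) and 3 with library size alone. The P5 libraries alone gave 4 calls, of which 2 were shared, *FABP7* and *CBLB*, and the others were *GAPDH* and *RPS19*. In that fit *GPR17* and *PIK3R1* were not called and *CDK18* was not tested. DESeq2's size factors in edgeR and a minimum count of 30 gave 5 calls each. With an animal left out there were 1 to 51 calls, and 0 to 1 for the difference between the ages, which had 1 call with DESeq2 and 5 without the filter. The cause of these changes was not tested. The number of lists with a median above 0, 41 of 70, was 37 to 47 in the alternatives.

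*STAT3*, at a log2 fold change of 0.08, changed sign without the block (−0.00038), with limma-voom (−0.0037), with RNA integrity (−0.095) and over the animals left out (−0.15 to 0.21), and *LIFR*, at −0.05, over the animals left out (−0.25 to 0.073). No other named gene changed sign. Of the other values for the 145 named genes, 178 crossed to the called side and 40 to the side not called. The comparison by gene length was not run. Genes under 3 CPM had a median SE of 1.28 on the log2 scale, so that depth limits what they show.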
